A study of Mus musculus with 16 samples.

Results

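The amino acid transporter genes described here were 40 of the 24091 genes counted in both deposited tables. They were chosen by symbol alone, with no measured value: genes of the Slc1, Slc7, Slc36, Slc38 and Slc43 families, with Slc3a1 and Slc3a2 added and 2 symbols of these families left out. The set held 7 Slc1, 2 Slc3, 14 Slc7, 4 Slc36, 10 Slc38 and 3 Slc43 genes. Polyadenylated RNA was sequenced from mice with a floxed allele of Tff2, the gene for a secreted trefoil peptide. Every control was Tff2 fl/fl without Cre, and every knockout (KO) was Pdx1:Cre;Tff2 fl/fl, in which Cre is driven by Pdx1, a gene of the early pancreatic epithelium. One experiment used whole pancreas at embryonic day 16.5 (E16.5), with 3 control and 3 KO embryos. The other used islets picked by hand from males at 60 weeks of age, with 5 control and 5 KO animals. Controls carried no Cre, so Cre itself and the loss of Tff2 cannot be told apart.

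Amino acids do not cross membranes unaided, and these families carry them across the cell surface or out of the lysosome. Slc3a2 encodes the heavy chain of CD98, which pairs with a light chain such as the leucine exchanger Slc7a5, and Slc3a1 is the corresponding heavy chain of kidney and gut. Slc38 transporters take up glutamine and small neutral amino acids, and Slc1 transporters take up glutamate or neutral amino acids. Slc7a1 takes up arginine and lysine, and Slc36a1 of the Slc36 family is driven by protons. In the exocrine pancreas amino acids feed the synthesis of digestive enzymes. In islets glutamine, leucine and arginine also modulate insulin and glucagon secretion, and uptake feeds the mTORC1 kinase.

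Total counts ranged from 14866194 to 22699934 in pancreas and from 22595400 to 32385042 in islets. Levels are CPM, the counts relative to the TMM-scaled library size, over the 16 libraries. Tff2 was at 20.5 to 34.6 CPM in control and 1.41 to 8.67 CPM in KO pancreas, and at 1.05 to 5.07 CPM in control and 0 to 0.516 CPM in KO islets. The 6 beta cell markers summed to 126300 to 164700 CPM in islets, and the 10 acinar markers to 105 to 1474 CPM. Marker lists of several cell types differed between KO and control pancreas. Pan-epithelial markers summed to 1545 to 1644 CPM in KO against 1958 to 2295 CPM in controls, and 7 of the 14 tested fell. All 6 beta cell markers fell (425.6 to 579.8 against 944.7 to 1319 CPM), as did 3 of 4 alpha cell markers (412 to 822.2 against 1120 to 1434 CPM) and 3 of 5 duct markers (532.1 to 682.6 against 860.4 to 903.1 CPM). The acinar sum was 46460 to 85290 CPM in KO and 96220 to 111500 CPM in control pancreas, though none of the 10 markers passed. Of the smooth muscle markers 4 of 5 rose (231.2 to 339.3 against 149.3 to 182.7 CPM), and of the Schwann and glia markers 3 of 5 rose and 1 fell (48.9 to 61.9 against 37.7 to 41.7 CPM). Markers of sympathetic neurons and chromaffin cells summed to 322.6 to 985.7 CPM against 179.7 to 197.5 CPM, and 11 of the 15 tested rose. Endothelial markers summed to 474 to 608.3 CPM in KO against 635.9 to 802.2 CPM in controls, and 2 of 5 fell. Intestine markers summed to 31.4 to 40.5 against 44.6 to 55.5 CPM, and 1 of the 3 tested fell. Kidney tubule markers summed to 41.5 to 75.0 against 20.5 to 34.6 CPM, mostly from Lrp2, and 1 of the 2 tested rose. Liver markers summed to 1401 CPM in KO 01 and to 271.7 to 473.3 CPM in the other 5 pancreata. The part of these cell types in the results on transporters was not tested. In such bulk samples fewer cells of a type and less RNA per cell cannot be told apart. In 1 of the 6 pancreata, KO 18, Xist was below the Y-linked Ddx3y, while all 10 islet libraries had Xist below it.

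Sequence is shown for 3 promoters, because the results turn on Slc38a11 and Slc3a2, and because the cystine exchanger Slc7a11 had matches to the core of the amino acid response element, the motif bound by the stress factor ATF4. Each run is the 250 bases before a start site in RefSeq (GRCm38.p6), 5′ to 3′ on the gene's strand, which is the minus strand for all 3. The regions are chr2:65364027-65364276 for Slc38a11, chr19:8713898-8714147 for Slc3a2, where the start site lies inside the gene, and chr3:50443614-50443863 for Slc7a11. Capitals mark the core TGATGNAA on either strand.
Slc38a11: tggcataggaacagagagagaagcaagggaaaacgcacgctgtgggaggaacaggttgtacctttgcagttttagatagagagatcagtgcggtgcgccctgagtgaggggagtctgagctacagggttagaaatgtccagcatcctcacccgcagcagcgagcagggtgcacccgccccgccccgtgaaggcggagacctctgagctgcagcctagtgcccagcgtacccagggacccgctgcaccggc
Slc3a2: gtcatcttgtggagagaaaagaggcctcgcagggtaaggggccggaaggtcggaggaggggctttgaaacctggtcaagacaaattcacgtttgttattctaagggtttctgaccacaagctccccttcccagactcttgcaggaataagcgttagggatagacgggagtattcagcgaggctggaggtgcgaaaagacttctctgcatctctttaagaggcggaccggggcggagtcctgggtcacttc
Slc7a11: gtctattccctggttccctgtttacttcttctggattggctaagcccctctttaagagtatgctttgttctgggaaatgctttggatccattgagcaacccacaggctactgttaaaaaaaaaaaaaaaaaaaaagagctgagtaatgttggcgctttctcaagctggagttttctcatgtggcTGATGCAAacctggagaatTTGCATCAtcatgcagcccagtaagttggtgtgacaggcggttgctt
These letters were not in the runs of Slc38a11 and Slc3a2. In Slc7a11 they began 66 bases before the start site on the gene's strand, and 47 bases before it on the other. Windows of 300 bases, from 250 before to 50 after the start, were found for 30 of the 40 members. Of their 41 windows, 4 held the core (9.76%), in Slc7a11, Slc1a4 and Slc7a7, against 3.97% of 32851 windows of all genes. The windows of Slc7a7 overlap and share a match, which is thus counted more than once. By gene, 3 of the 30 members held the core, against 1219 of 27025 genes. A match in a window is a description and not a site of binding. Slc7a5 had no entry.

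The first question was which transporters each control tissue expressed. In control pancreas 30 of the 40 members had a mean of at least 1 CPM, 23 of at least 10 CPM and 8 of at least 100 CPM. In control islets the counts were 26, 17 and 9. No read was found in the 5 control islet libraries for Slc36a2, Slc36a3, Slc7a12 and Slc7a13, which allows up to 0.0247 CPM over the group (3 counts, counting error only). Levels of different genes were compared only per kb of the gene length in the tables. In control pancreas the order was led by the system A glutamine transporter Slc38a2, at a mean of 63.2 CPM per kb. Slc7a5 followed at 60.0 and Slc38a10, a widely expressed relative, at 59.5 CPM per kb, and neighbours among these 3 overlapped in range. Slc38a4, another system A carrier, was at 53.8 CPM per kb, the system N glutamine transporter Slc38a3 at 47.4, and Slc3a2 at 46.7. The neutral amino acid exchanger Slc1a5 was at 27.9 CPM per kb and Slc7a1 at 15.99, and neither overlapped its neighbours.

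In control islets the order was led by Slc38a10 at 98.3 CPM per kb and Slc38a4 at 90.5, followed by Slc7a14, a lysosomal relative of the cationic transporters, at 80.3 CPM per kb. Neighbours among these 3 overlapped in range. Slc7a8, a second light chain of CD98, was at 65.2 CPM per kb and overlapped Slc3a2 at 64.0. Slc7a5 was at 43.3 CPM per kb and overlapped Slc38a2 at 42.7, and Slc43a2, a carrier of branched-chain amino acids, was at 33.0. The lysosomal Slc36a1 was at 15.7 CPM per kb, Slc7a1 at 14.4 and Slc36a4 at 11.6. Among Slc1 genes, the neutral carrier Slc1a4 led in islets at 8.83 CPM per kb, and Slc1a5 was at 1.67. Both tissues had Slc38a10, Slc38a4, Slc38a2, Slc7a5 and Slc3a2 among their 7 highest members. The plot of control levels places these 5 genes at the upper right, and the members that differ most between the tissues away from the diagonal.

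**Figure D1:**
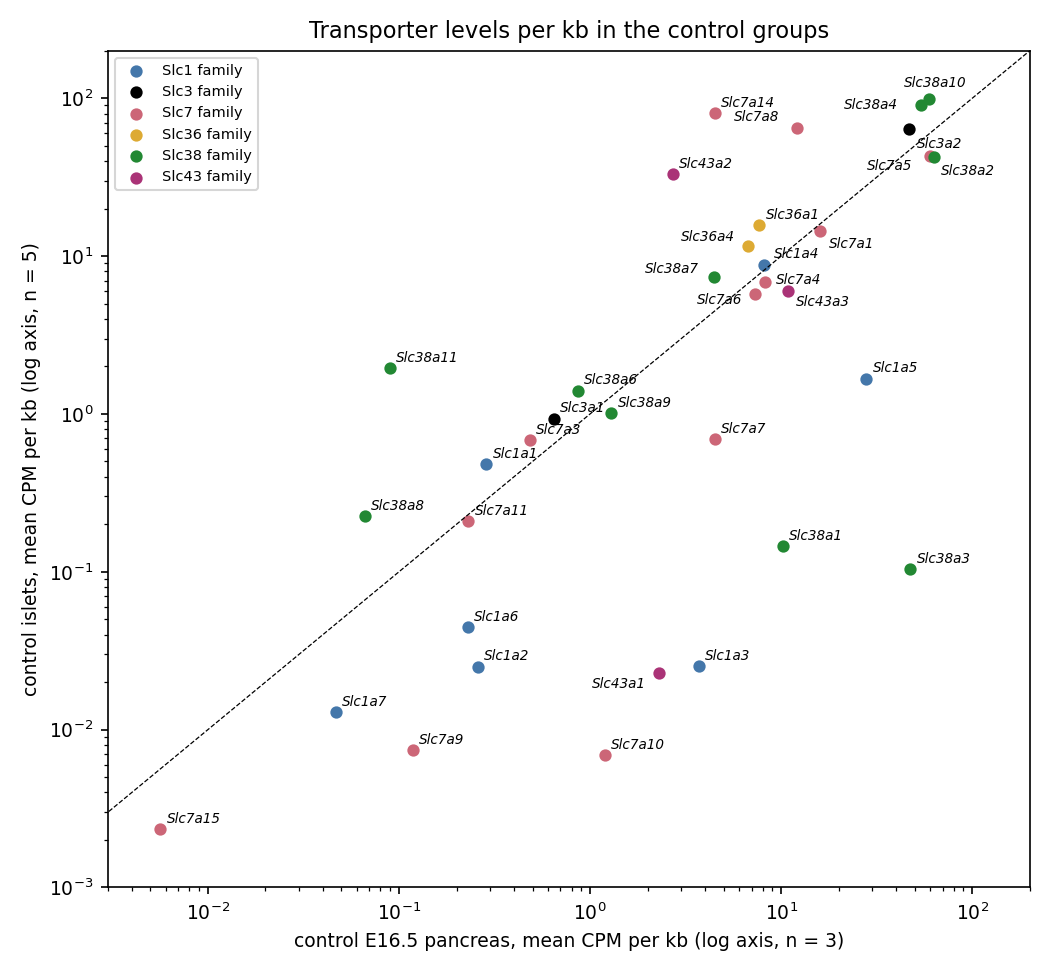
Mean level per kb of 36 members in control E16.5 pancreas (x axis, n = 3) and control islets (y axis, n = 5), both in CPM per kb on log axes, coloured by family, with the dashed line at equal levels. Slc7a14, Slc43a2 and Slc38a11 lie above the line, and Slc38a3, Slc38a1, Slc1a3, Slc43a1 and Slc7a10 below it; the 4 members with no read in control islets are not drawn.

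Control islets were then compared with control pancreas in an edgeR quasi-likelihood fit of all 16 libraries, with Benjamini-Hochberg adjustment over 15823 genes. Of the 33 members tested, 13 were higher in islets, where 42.4% of all genes tested were, and 15 were lower, where 43.6% were. At least 4-fold, 4 members were higher (11.2% of all genes) and 9 were lower (17.1%). Tissue, age, sex, islet isolation and the deposited count table changed together here and cannot be told apart.

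Slc38a3 had the largest difference of any member. Its levels were 141, 160 and 124 CPM in control pancreas and 0.143, 0.319, 0.420, 0.413 and 0.256 CPM in control islets. Every pancreas thus stood far above every islet library, with a log2 difference of -8.77 (SE 0.207, adjusted p = 3.71e-16). The glutamate transporter Slc1a3 was at 26.4 ± 2.10 CPM (SD, n = 3) in pancreas and 0.180 ± 0.125 CPM (SD, n = 5) in islets, a log2 difference of -7.15. Slc43a1, a carrier of leucine and other large neutral amino acids, was at 11.5 ± 1.26 CPM in pancreas and 0.114 ± 0.0612 CPM in islets, a log2 difference of -6.58. The glutamine carrier Slc38a1 was at 148 ± 16.3 CPM in pancreas and 2.11 ± 0.780 CPM in islets, with a log2 difference of -6.11. Slc7a10, an exchanger of small neutral amino acids, had 162 reads in control pancreas and 2 in control islets, a ratio in CPM of 154 with an exact 95% interval from 42 to 1280. Slc7a10 overlaps Lrp3 on the other strand, and reads of the pair could not be told apart because the use of strand in counting is not given. Slc1a5 was also lower in islets, at 4.60 ± 0.299 CPM (SD, n = 5) against 76.7 ± 3.95 CPM (SD, n = 3).

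Slc7a14 was at 41.4 ± 1.74 CPM (SD, n = 3) in control pancreas and 742 ± 47.3 CPM (SD, n = 5) in control islets, a log2 difference of 4.16 (SE 0.168, edgeR adjusted p = 2.70e-13). Slc43a2 was at 25.7 ± 1.66 CPM in pancreas and 312 ± 19.6 CPM in islets, a log2 difference of 3.60, and it overlaps Mir3971 on the other strand. Slc7a8 was at 59.6 ± 3.92 CPM in pancreas and 321 ± 2.42 CPM in islets, a log2 difference of 2.43. Slc38a8, a glutamine transporter known from the retina, was scarce in both tissues, at 0.173 ± 0.0254 CPM and 0.589 ± 0.152 CPM (log2 difference 1.73, edgeR adjusted p = 0.0134). Slc38a11, an SNAT family member with little known of its substrates, had 3 reads in each control pancreas, at 0.122, 0.151 and 0.154 CPM. In control islets it was at 3.29, 2.50, 2.63, 3.45 and 3.71 CPM, so all islet libraries were above all control pancreata (log2 difference 4.41, SE 0.632, edgeR adjusted p = 5.21e-06).

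Smaller differences marked the shared members. In islets the log2 difference was 1.03 for Slc36a1, 0.80 for Slc36a4, 0.75 for Slc38a4, 0.72 for Slc38a10 and 0.45 for Slc3a2, all past the threshold. It was -0.47 for Slc7a5, -0.57 for Slc38a2 and -0.86 for Slc43a3, a member since assigned to purine nucleobases, also past the threshold. Of the CD98 chains named so far, Slc7a5 was lower in islets, while Slc3a2 and the light chain Slc7a8 were higher. Other members that can pair with Slc3a2 were lower in islets past the threshold, Slc7a6 (-0.35), Slc7a7 (-2.69) and Slc7a10 (-6.85). Slc7a11 (-0.13, edgeR adjusted p = 0.713) did not pass. Slc7a1 (-0.16, edgeR adjusted p = 0.175), Slc3a1 (0.54, adjusted p = 0.185) and Slc1a4 (0.12, adjusted p = 0.447, but -0.12 with library totals) did not pass. Slc7a1 passed with library totals (-0.39, edgeR adjusted p = 0.00234) and without islet control 829 (-0.24, adjusted p = 0.0233), and Slc3a1 passed without E16.5 control 13 (1.28, adjusted p = 0.00400). With library totals in place of TMM the median of all genes moved to -0.25.

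The next comparison set KO against control for these genes in fetal pancreas. Among the 32 members tested, 1 rose in KO pancreas, Slc38a11, against 3.75% of the 14914 genes tested. Slc7a5 and Slc3a2, a light chain and the heavy chain of CD98, fell, 2 members against a background of 2.68%. The other 29 did not pass. An unadjusted p under 0.05 was reached by 3 members in the upward direction (13.0% of all genes) and 7 in the downward (12.4%). Of the members tested, 18 were above 0 and 14 below, and their median log2 difference was 0.04 where that of all genes was -0.0012.

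Slc7a5 is a minus-strand gene of chromosome 8 in mm10, from 121881146 to 121907686. Its levels were 207, 238 and 193 CPM in control pancreas and 157, 158 and 170 CPM in KO pancreas. All 3 KO libraries were below the lowest control, and the KO values lay closer together. The means were 213 ± 22.6 CPM and 161 ± 7.17 CPM (SD, n = 3 each), a log2 difference of -0.36 (SE 0.0815, edgeR adjusted p = 0.0419), which became 0.014 (adjusted p = 0.874) when libraries were scaled to their pan-epithelial markers.

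Slc3a2 is a minus-strand gene of chromosome 19, from 8706882 to 8723369. It was at 143, 142 and 128 CPM in controls and at 96.2, 115 and 105 CPM in KO pancreas. Again no KO library reached the lowest control. The means were 138 ± 8.41 CPM and 105 ± 9.31 CPM (SD, n = 3 each), a log2 difference of -0.35 (SE 0.0799, edgeR adjusted p = 0.0423), which became 0.025 (adjusted p = 0.828) with pan-epithelial scaling. That scaling moved the median of all genes to 0.37 and that of the members to 0.42, with 16 members higher (58.5% of all genes) and none lower (0.335%).

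Both calls lay close to the threshold. With library totals, Slc7a5 was at -0.29 (edgeR adjusted p = 0.0854) and Slc3a2 at -0.28 (adjusted p = 0.0576), while DESeq2 gave adjusted p-values of 0.00177 and 0.00383. Leaving out KO 01, 18 or 19 left Slc7a5 at -0.34, -0.35 and -0.40, none of which passed (adjusted p = 0.0584, 0.0729 and 0.0598). Slc3a2 was then at -0.29, -0.42 and -0.34 (adjusted p = 0.0584, 0.0352 and 0.0927), and passed without KO 18. Without control 02, 08 or 13 only 0, 4 and 0 genes of the whole table passed, so a lost call there says nothing about a single gene. The differences without these controls were -0.38, -0.28 and -0.43 for Slc7a5 and -0.33, -0.34 and -0.40 for Slc3a2. In all KO libraries the pan-epithelial, acinar, beta, alpha, duct, endothelial and intestine sums were also below those of every control. Of all genes 17.0% were below every control in all KO libraries, with libraries scaled over the pancreata alone. The part of these cell types in both calls was not tested.

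**Figure D2:**
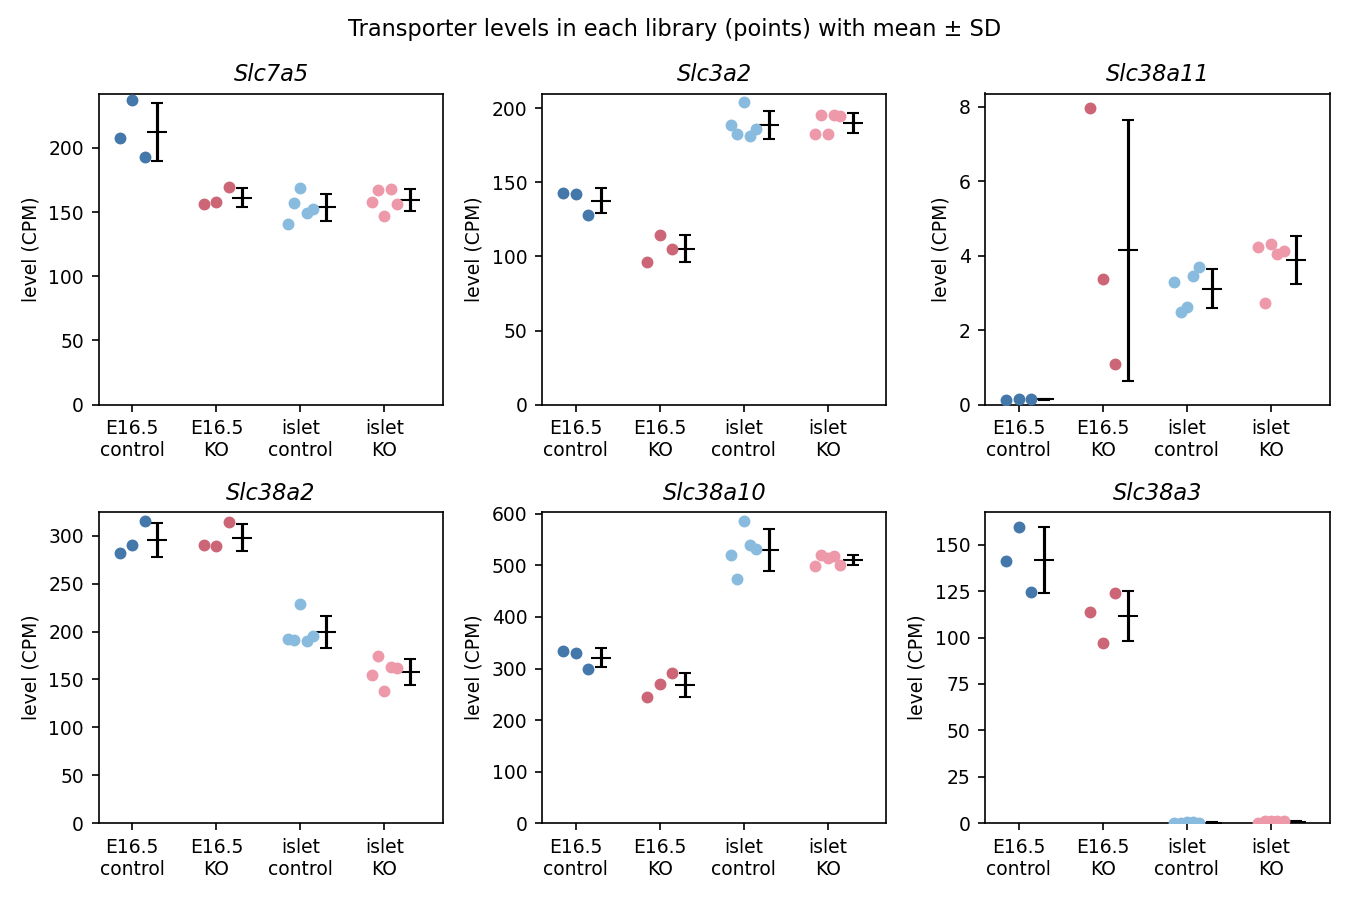
Level in CPM (y axis, from 0, a separate scale in each panel) of 6 members in every library, as points by group, with the mean and SD beside them; n = 3 per E16.5 group and 5 per islet group. In E16.5 pancreas the KO points of Slc7a5 and Slc3a2 are below all controls and those of Slc38a11 above them, and in islets the KO points of Slc38a2 are below all controls.

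Slc38a11 is a minus-strand gene of chromosome 2, from 65316633 to 65364026. In KO pancreas it was at 7.96, 3.36 and 1.10 CPM in libraries 01, 18 and 19, from 172, 57 and 21 reads, where each control had 3 reads. Every KO library was thus above every control, and the KO libraries differed widely among themselves. The log2 difference was 4.86 (SE 0.836, edgeR adjusted p = 0.0248) and was 5.23 with pan-epithelial scaling. It was 3.95 without KO 01, still past the threshold (edgeR adjusted p = 0.00726), and 4.75, 4.90 and 4.92 without control 02, 08 and 13, where almost no gene passed. With so few reads in controls the size of the fold is imprecise.

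Sympathetic and chromaffin markers moved with Slc38a11 over the KO libraries. The noradrenaline transporter Slc6a2 was at 0.122, 0.504 and 0.205 CPM in controls and at 145.5, 61.2 and 23.2 CPM in KO 01, 18 and 19. Dbh, the enzyme that makes noradrenaline, was at 0.122, 0.303 and 0.308 CPM in controls and at 84.0, 36.3 and 17.2 CPM in the KO libraries. Both markers and Slc38a11 had the same order of KO libraries, highest in 01 and lowest in 19. The whole list of 16 markers summed to 985.7, 532.2 and 322.6 CPM in these libraries, with none at 0 in either group. Adrenal cortex markers summed to 3.68 to 5.80 CPM in controls and 3.89 to 6.95 CPM in KO pancreas. Of these, Cyp11b1 and Cyp21a1 were at 0 in KO. Kidney tubule markers summed to 47.5, 41.5 and 75.0 CPM in KO 01, 18 and 19, against 20.5 to 34.6 CPM in controls, mostly from Lrp2. In islets Slc38a11 was also detected. There the sympathetic and chromaffin list summed to 699.7 to 806.7 CPM in controls and 716.2 to 920.8 CPM in KO. Ddc, the decarboxylase of monoamine synthesis, was at 493.2 to 614.6 CPM in islets. There Dbh reached at most 1.28 CPM and Slc6a2 0.413 CPM, while Tfap2b and Pnmt were at 0. Pnmt, which makes adrenaline, was also at most 0.139 CPM in KO pancreas. KO 01, with the most Slc38a11, also had the highest liver sum and the lowest acinar sum. The part of these cells in the Slc38a11 result was not tested.

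**Figure D3:**
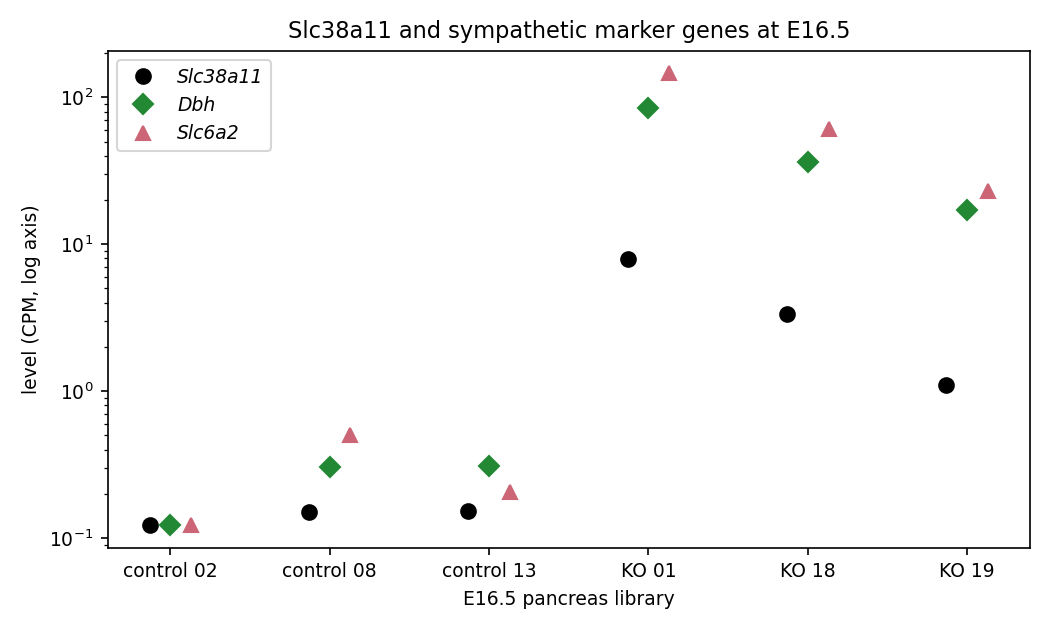
Levels of Slc38a11 and 2 sympathetic markers (Dbh and Slc6a2) in CPM on a log axis (y) in each of the 6 E16.5 pancreas libraries (x), 1 point per gene and library. All 3 genes are higher in the 3 KO libraries than in the 3 controls, and in each the order is KO 01, then 18, then 19.

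Members that missed the threshold included several with group ranges that did not overlap. The glutamate transporter Slc1a2 had the lowest p of these. It was at 2.85, 2.98 and 3.49 CPM in controls and 4.91, 4.31 and 5.07 CPM in KO pancreas, all KO above all controls (log2 difference 0.65, edgeR adjusted p = 0.0526), and it passed with library totals (adjusted p = 0.0427). Slc1a5 was at 76.7 ± 3.95 CPM in controls and 64.1 ± 5.57 CPM in KO (SD, n = 3 each; log2 difference -0.23, edgeR adjusted p = 0.113). Slc38a10 was at 321 ± 18.6 CPM and 269 ± 23.2 CPM (-0.22, edgeR adjusted p = 0.133, SD, n = 3 each). Both differences turned positive with pan-epithelial scaling, to 0.15 each.

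Slc38a3 was at 141, 160 and 124.4 CPM in controls and 114, 97.1 and 123.8 CPM in KO, so that the nearest libraries of the groups all but touched (log2 difference -0.31, edgeR adjusted p = 0.124). Slc3a1, the heavy chain of the cystine and dibasic transporter, was at 0.938, 0.807 and 2.72 CPM in controls and 0.463, 0.590 and 0.784 CPM in KO. Its difference of -1.23 (SE 0.525, edgeR adjusted p = 0.190) was -0.48 without control 13, and it shares a region with Prepl on the other strand. Control 13 alone had reads of the kidney markers Slc34a1 (2.82 CPM) and Slc22a6 (0.923 CPM), which were at 0 in the other pancreata. The sum of all kidney tubule markers was higher in every KO library than in control 13, but most of it was Lrp2. Lrp2 was at 45.8, 39.7 and 74.0 CPM in KO 01, 18 and 19 and at 27.7 CPM in control 13. Cubn (2.36 CPM) and Slc12a1 (0.821 CPM) were highest in control 13 among the pancreata, while Umod was at 0 in it. The part of kidney cells in the Slc3a1 level was not tested. Slc38a7, a lysosomal glutamine exporter, was at 14.5 ± 0.486 CPM and 16.5 ± 0.917 CPM (0.22, edgeR adjusted p = 0.167, SD, n = 3 each). Slc7a4, a cationic transporter relative that overlaps P2rx6 on the other strand, was at 27.6 ± 2.41 CPM and 22.1 ± 3.67 CPM (-0.29, edgeR adjusted p = 0.194, SD, n = 3 each). Slc1a2, Slc38a7 and Slc7a4 were singled out after their values were seen. Slc38a2 was at 0.04 (edgeR adjusted p = 0.738), and the remaining 21 members lay between -0.27 (Slc1a1) and 0.50 (Slc7a3). With libraries scaled over the 6 pancreata alone, non-overlapping groups were found for 3 members above controls (14.3% of all genes) and 5 below (17.0%). Slc38a3 is not among these 5, since its groups overlapped on that scale.

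**Figure D4:**
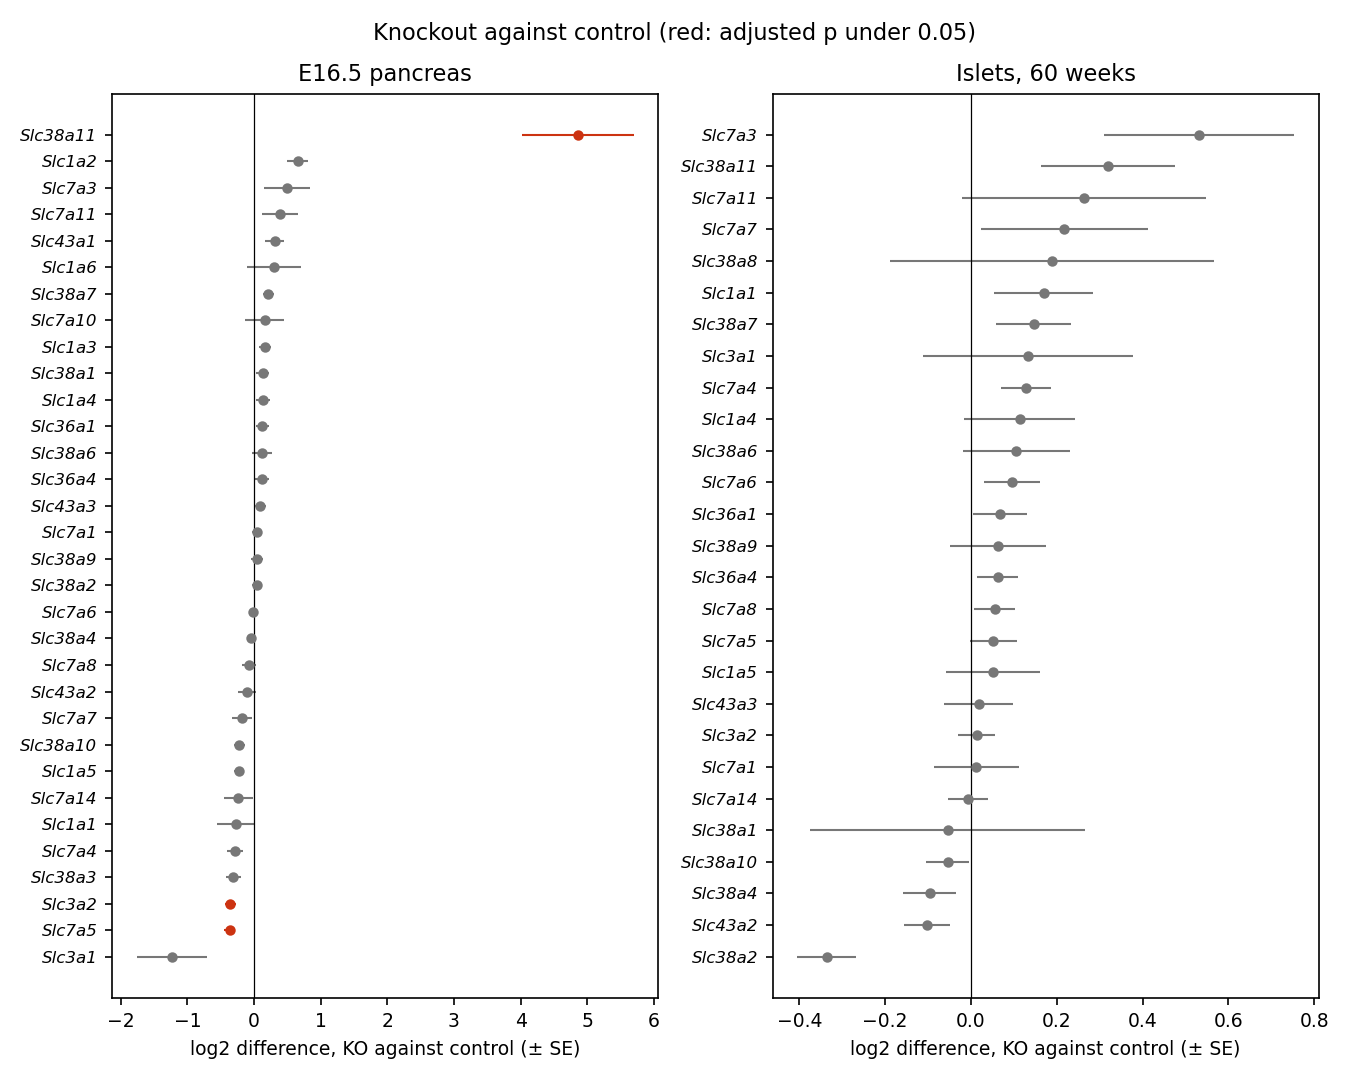
Log2 difference of KO against control with its SE (x axis, a wider scale for pancreas) for the 32 members tested in E16.5 pancreas (left) and the 27 tested in islets (right), in order of size, with red marking an edgeR adjusted p under 0.05. Slc38a11, Slc3a2 and Slc7a5 are red in pancreas, and no member is red in islets, where Slc38a2 has the lowest value.

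The same comparison was made in islets at 60 weeks. None of the 27 members tested passed in the edgeR fit, where 0.155% of 14219 genes did, 16 higher and 6 lower. An unadjusted p under 0.05 was reached by 3 members, Slc38a2, Slc7a3 and Slc7a4, or 11.1% of those tested, against 7.18% of all genes. DESeq2 called 1 member, Slc38a2, lower (0.331% of all genes). Of the members tested, 21 were above 0 and 6 below, with a median of 0.06 against -0.0012 for all genes.

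Slc38a2, on chromosome 15 from 96687392 to 96699698 (minus strand), is known to be induced when amino acids are short. It was at 192, 192, 229, 190 and 195 CPM in control islets and at 154, 174, 137, 163 and 162 CPM in KO islets. The highest KO library was below the lowest control, which held downward for 0.823% of all genes and for no other member. The means were 200 ± 16.3 CPM and 158 ± 13.6 CPM (SD, n = 5 each), a log2 difference of -0.34 (SE 0.0689). The adjusted p was 0.112 in edgeR and 0.00149 in DESeq2, and over 16 alternatives the difference ranged from -0.37 to -0.28 with adjusted p-values up to 0.274. An acinar covariate left it at -0.34 (edgeR adjusted p = 0.112).

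Slc38a3, abundant in fetal pancreas, was near the floor of detection in islets. The controls 052, 826, 829, 857 and 858 had 3, 7, 12, 11 and 6 reads, and the KO libraries 055, 122, 803, 812 and 845 had 6, 22, 35, 20 and 22 reads. As levels these were 0.143, 0.319, 0.420, 0.413 and 0.256 CPM in controls and 0.248, 0.911, 1.13, 0.962 and 1.02 CPM in KO islets. The 4 KO libraries other than 055 were above all controls, and 055 lay within the control range. The default filter left Slc38a3 out, and with no filter the log2 difference was 1.42 (SE 0.391, edgeR adjusted p = 0.379). Without KO 055 it was 1.65 (SE 0.271, adjusted p = 0.0449), the only member called there (0.112% of all genes higher). Acinar marker sums were 319, 993, 313, 952 and 1171 CPM in the controls and 569, 1474, 948, 105 and 829 CPM in the KO libraries. KO 812, with the lowest acinar sum, was at 0.962 CPM of Slc38a3, and KO 122, with the highest, at 0.911 CPM. The part of acinar cells in the Slc38a3 level was not tested. KO 055 had the highest sum of erythroid markers, 206.6 CPM against 13.3 to 70.3 CPM in the other 9 islet libraries, and its part in the result was not tested.

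The genes called in pancreas showed no call in islets. Slc7a5 was at 141, 157, 168, 150 and 152 CPM in control and 158, 168, 147, 168 and 157 CPM in KO islets (log2 difference 0.05, edgeR adjusted p = 0.897). Slc3a2 was at 188, 183, 205, 181 and 186 CPM in control and 183, 196, 183, 196 and 195 CPM in KO islets (0.01, adjusted p = 0.985). Both overlapped fully between the groups. Slc38a11 was at 4.22, 2.73, 4.32, 4.04 and 4.12 CPM in KO islets, where 4 of the 5 were above all 5 controls and KO 122 was within them (0.32, SE 0.157, edgeR adjusted p = 0.708). Slc7a3, a cationic transporter, was at 1.65 ± 0.395 CPM and 2.40 ± 0.662 CPM (SD, n = 5 each; 0.53, edgeR adjusted p = 0.627). Slc7a4 was at 22.9 ± 0.759 CPM and 25.1 ± 1.96 CPM (SD, n = 5 each; 0.13, edgeR adjusted p = 0.689), and both genes were named after their values were seen. Slc3a1 was at 2.14 ± 0.341 CPM and 2.36 ± 0.882 CPM (SD, n = 5 each; 0.13, edgeR adjusted p = 0.958). The remaining 20 members tested lay between -0.10 (Slc43a2) and 0.26 (Slc7a11). The abundant islet members Slc7a14 (742 ± 47.3 against 738 ± 21.8 CPM), Slc38a10 (530 ± 40.3 against 511 ± 9.68 CPM) and Slc38a4 (373 ± 30.2 against 349 ± 21.9 CPM) were among these (SD, n = 5 each).

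Whether the genotype difference itself differed between the tissues was tested as an interaction over all 16 libraries. The interaction passed for 4 of 33 members, 3 in which the islet difference was the higher (3.94% of all genes) and 1 in which it was the lower (3.25%). For Slc7a5 the islet difference exceeded that in pancreas by 0.43 (SE 0.0981, edgeR adjusted p = 0.0152), and for Slc3a2 by 0.38 (SE 0.0865, adjusted p = 0.0151). The call of Slc3a2 was lost without E16.5 control 02 (adjusted p = 0.0534). For Slc38a3 the excess was 1.74 (SE 0.379, adjusted p = 0.0125), with the low islet counts given above on 1 side of it. The default filter kept Slc38a3 in this fit but not in the islet fit. With all libraries its difference passed in neither tissue alone. For Slc38a11 the islet difference was below that in pancreas by a log2 value of -4.54 (SE 0.752, adjusted p = 0.00270). For Slc38a2 the value was -0.36 (SE 0.108, adjusted p = 0.0522), which did not pass. Pan-epithelial scaling, which brought the pancreas differences of Slc7a5 and Slc3a2 to near 0, was not run for the interaction.

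Genes that act with these transporters were followed in 4 lists. Of 26 targets of the ATF4 amino acid response 24 were tested at E16.5, where none rose and 2 fell in edgeR, with 21 below 0 and a median of -0.18 against -0.0012 for all genes. Over all genes 2.68% fell. DESeq2 called 6 of them lower, and 4.24% of all genes, and edgeR called 3, 4 and 0 lower without KO 01, 18 and 19. Nupr1, a stress-induced chromatin protein, went from 289.7 ± 18.3 to 196.1 ± 24.01 CPM (SD, n = 3 each; log2 difference -0.53, edgeR adjusted p = 0.0278). Ddit4, an inhibitor of mTORC1, went from 78.3 ± 1.16 to 65.5 ± 1.05 CPM (SD, n = 3 each; -0.22, edgeR adjusted p = 0.0408). Atf4 itself was at -0.37 (adjusted p = 0.0520) and Asns, asparagine synthetase, at -0.32 (adjusted p = 0.0579). With pan-epithelial scaling the list's median was 0.19 where that of all genes was 0.37, Nupr1 was at -0.15 and Ddit4 turned to 0.15. Slc7a5, Slc3a2, Slc7a11 and Slc38a2 are known ATF4 targets, and the list holds none of them.

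Of 25 genes of amino acid sensing and mTORC1, 23 were tested at E16.5. Lamtor2, a lysosomal anchor of mTORC1, fell (-0.40, edgeR adjusted p = 0.0317, and -0.02 with pan-epithelial scaling), and the list's median was 0.0037. Of 30 other amino acid transporters 18 were tested. Slc6a15, a neuronal carrier of branched-chain amino acids and proline, rose from 1.48 ± 0.387 to 5.65 ± 3.72 CPM (SD, n = 3 each; 1.98, edgeR adjusted p = 0.0461), and was at 1.29 without KO 01 (adjusted p = 0.0254), the library with the highest sympathetic sum. The part of sympathetic cells in it was not tested. Slc6a6, the taurine transporter, fell from 155.7 ± 6.28 to 125.3 ± 3.31 CPM (SD, n = 3 each; -0.28, edgeR adjusted p = 0.0357), but was at 0.09 with pan-epithelial scaling. Without KO 19 only Slc6a15 of these 3 passed. With 1 control left out, where almost no gene passed, Lamtor2 ranged from -0.44 to -0.36, Slc6a6 from -0.30 to -0.25 and Slc6a15 from 1.84 to 2.19. None of the 20 aminoacyl-tRNA synthetases passed in edgeR, and DESeq2 called 2 lower (4.24% of all genes). An unadjusted p under 0.05 was reached by 7, all lower, against 12.4% of all genes lower. Of these 20 genes 18 were below 0, with a median of -0.13 against -0.0012 for all genes, and 0.25 against 0.37 with pan-epithelial scaling. Their most abundant members were Eprs (-0.04, edgeR adjusted p = 0.768) and Kars (-0.22, adjusted p = 0.0978). In islets no gene of the 4 lists passed in edgeR or DESeq2, with medians from -0.02 to 0.03, and an unadjusted p under 0.05 was reached by 2 genes, Slc25a13 and Slc6a19, both higher.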

How the data were processed

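RNA was extracted from whole E16.5 pancreas and from islets, and the labels' protocols name the Kapa mRNA HyperPrep kit for the libraries of polyadenylated RNA. The authors deposited raw read counts for each gene, as whole numbers, beside a gene length in kb. Per the submitters' processing notes, which assign no roles, the tools included edgeR, HTSeq 0.11.1, STAR 2.6.0 and Trimmomatic, and the build was mm10. The annotation version and strand setting were not given in the sources used here. Overlapping genes on opposite strands may therefore share reads.

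Libraries were grouped by the genotype and stage that the labels give. Each had its own animal number, with no litter given, so p-values measure the spread between these libraries. No 2 libraries of a group agreed within sampling noise (lowest chi-square per degree of freedom 4.90). Each comparison was fitted on the whole table with the edgeR 4.0.16 quasi-likelihood F test in R 4.3.3, with TMM scaling and the default filterByExpr, and adjusted by Benjamini-Hochberg with a threshold of 0.05; the scripts were tested on simulated data. The KO comparisons used 1 tissue each, the interaction and the tissue comparison all 16 libraries. Standard errors came from the log2 difference and its F statistic. Alternatives were other scalings and filters, DESeq2 1.42.0, covariates, and each library left out.

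Members named by rule were those past the threshold in a KO comparison or the interaction, the 2 highest per kb of each family in each tissue, Slc3a1, Slc3a2 and Slc38a11, and the 5 largest tissue differences in each direction. In the 4 lists up to 3 genes past the threshold were named at E16.5, or the 2 most abundant where none passed. Atf4 and Asns were named outside this rule. In islets Slc25a13 and Slc6a19 were named for their unadjusted p, after their values were seen, and the most abundant genes were not named. Members and lists were chosen with earlier results of these data known. Promoters were to be printed only where members of a family moved together; those of Slc38a11 and Slc7a11 were added, and 10 members had no entry. The 2 symbols left out of the set are not reported here.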

Additional observations from a re-analysis of the deposited data

Results flagged for a closer look

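Values of 1 library stood apart from the rest of its group for 4 members, by the gap to the nearest library relative to the group's range. Only islet groups were checked this way, for named members above a minimum islet level, and the E16.5 groups were not. Of the 38 groups of member values checked, chance alone flags about 1 in 20. Slc38a11 was at 2.73 CPM in islet KO 122, where the other 4 KO islet libraries were at 4.04 to 4.32 CPM. Slc38a2 was at 228.5 CPM in islet control 829, against 190.2 to 195.2 CPM in the other controls. Slc38a3 was at 0.248 CPM in islet KO 055, against 0.911 to 1.13 CPM in the other KO libraries, which is the library without which its difference passed. Slc43a3 was at 21.5 CPM in islet KO 845, against 26.7 to 28.7 CPM in the other KO libraries.

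The genotype difference differed between islets and E16.5 pancreas, by the interaction test of edgeR, for 4 members. The islet difference minus that in pancreas was -4.54 for Slc38a11 (adjusted p = 0.00270), 1.74 for Slc38a3 (adjusted p = 0.0125), 0.38 for Slc3a2 (adjusted p = 0.0151) and 0.43 for Slc7a5 (adjusted p = 0.0152) on the log2 scale. Slc38a3 had few reads in islets, was left out of the islet fit by the filter, and passed in neither tissue alone with all libraries. In pancreas all 3 KO libraries were above every control for Slc38a11, and below every control for Slc3a2 and Slc7a5. Of all genes tested there, 14.3% were above every control in this way and 17.0% below. The KO and control islet libraries overlapped for each of these 3 genes.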

How the results depend on the processing

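At E16.5 the number of members higher in KO was 1 and became 2 with library totals (Slc1a2 added), 16 with pan-epithelial scaling and 0 to 1 with a library left out. The number lower was 2 and became 0 with library totals, 0 with pan-epithelial scaling, 1 with a sex covariate (Slc3a2), and 0 to 1 with a library left out, where Slc7a14 was the 1 called without KO 01. All genes higher were 918 with DESeq2, 8722 with pan-epithelial scaling and 0 to 694 with a library left out; all genes lower were 179 with library totals, 632 with DESeq2, 50 with pan-epithelial scaling and 0 to 395 with a library left out. Pan-epithelial scaling reversed Slc7a5 (0.014), Slc3a2 (0.025), Slc38a3 (0.066), Slc7a4 (0.085), Slc1a5 (0.15) and Slc38a10 (0.15).

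In islets members higher were 0 to 1 with a library left out (Slc38a3 without KO 055), and members lower 1 with DESeq2 (Slc38a2). All genes higher were 65 with DESeq2 and 3 to 16 with a library left out, and all genes lower 47 and 2 to 10. With a library left out Slc3a1 ranged from -0.044 (without KO 055) to 0.27 and Slc3a2 from -0.0016 (without control 857) to 0.045. For the interaction, members lower were 2 with library totals, 2 with the filter at a 1 CPM mean and 1 to 2 with a library left out (Slc38a2 added each time); all genes higher were 299 with library totals and 261 to 666 with a library left out, and all genes lower 254 to 625. Slc1a4 turned to -0.12 with library totals in the tissue comparison. The causes were not tested. No paired analysis was possible because the groups share no animal number. Depth limits Slc38a11 in control pancreas and Slc38a3 in islets, and 3 libraries per group limit the E16.5 calls.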
